A study of Mus musculus with 4 samples.

Results

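The genes described here are 9 regulators of the pluripotent state: Pou5f1, Sox2, Sall4, Trim71, Lin28a, Utf1, Dppa4, Dppa2 and Zfp281. They were chosen by their gene symbols from the 54146 mouse genes of the deposited table, all 9 had a row there, and 8 had a count in any library. The libraries were made by TT-seq, in which growing cells take up 4-thiouridine for a short time so that only newly made RNA is purified. Mouse embryonic stem (ES) cells in LIF and serum were compared in 4 libraries, 2 with the genotype label Supt3 WT (wild type) and 2 with the label Supt3 KO. Supt3 encodes a subunit of SAGA, a coactivator complex that modifies chromatin and helps to load RNA polymerase II at promoters. Labelled RNA from fission yeast (S. pombe) was added to all 4 as a spike-in. The labels give no strain, no sex, no description of the mutant allele and no word on whether separate clones or cultures were used. The p-values therefore measure library-to-library spread, which may be only technical.

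Counts on mouse genes ranged from 13092151 to 19405100 per library, and counts on S. pombe genes from 3462802 to 4836407. In both genotypes the library numbered 2 had more mouse counts than the library numbered 1. Levels are given as CPM, counts scaled to a library size of 1000000, with library sizes adjusted by TMM, a trimmed mean that sets libraries to the bulk of their mouse genes; this unit is used below unless another is named. For Supt3 itself the WT libraries held 148 and 159 CPM and the KO libraries 123 and 140 CPM. Supt3 did not pass the test (log2 fold change of KO over WT -0.22 ± 0.10 (SE), edgeR adjusted p = 0.232); the labels do not say which bases were changed, so this level is no check of the genotype. Supt3 passed with KO replicate 2 left out (-0.31, adjusted p = 0.0328) and with the term for counted reads described further on (-0.22, adjusted p = 0.0111).

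Pou5f1 encodes Oct4, a POU homeodomain factor, and Sox2 encodes an HMG box factor; the pair binds composite sites in the enhancers of ES cell genes, their own included. Sall4 and Zfp281 are zinc finger regulators that work with this pair and also recruit corepressors such as the NuRD complex. Lin28a binds the precursor of the microRNA let-7 and blocks its maturation, and Trim71 is a ubiquitin ligase and RNA-binding protein whose messenger RNA is itself a target of let-7. Utf1 is a chromatin-bound factor and a classical target of Oct4 and Sox2. Dppa2 and Dppa4 are neighbouring genes whose SAP domain proteins form a complex that keeps developmental promoters open to activation. These genes mark ES cells whether they are in the naive or the primed state, in contrast to factors such as Klf4 and Tbx3, which mark the naive state.

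Upstream windows are shown for 4 of the genes. Pou5f1 and Sox2 are shown as the founding pair, Sox2 also because its window lies inside another gene of the same strand. Trim71 and Utf1 are shown as the genes with the highest level per library and per length, respectively. Each window is the 250 bases before the RefSeq start (build GRCm38.p6, the sequence of mm10), written 5′ to 3′ on the gene's strand, and 6 of the 9 genes had one. Pou5f1 has a further RefSeq start, whose window is not shown, and the RefSeq start of Sox2 lies 410 bases before the start in the deposited table. Capitals mark matches, on either strand, to GGGCGG (the GC box), to CCAAT (bound by NF-Y), to TATAAA (bound by TBP), to ATGCAAA (the core of the octamer that POU factors bind) or to AGGTCA (a nuclear receptor motif).
Pou5f1, chr17:35505782-35506031, plus strand: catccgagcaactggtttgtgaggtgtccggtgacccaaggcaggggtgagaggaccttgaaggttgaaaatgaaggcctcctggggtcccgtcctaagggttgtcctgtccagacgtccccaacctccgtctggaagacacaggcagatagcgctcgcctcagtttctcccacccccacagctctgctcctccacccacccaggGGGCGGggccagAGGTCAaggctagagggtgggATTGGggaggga
Sox2, chr3:34649745-34649994, plus strand: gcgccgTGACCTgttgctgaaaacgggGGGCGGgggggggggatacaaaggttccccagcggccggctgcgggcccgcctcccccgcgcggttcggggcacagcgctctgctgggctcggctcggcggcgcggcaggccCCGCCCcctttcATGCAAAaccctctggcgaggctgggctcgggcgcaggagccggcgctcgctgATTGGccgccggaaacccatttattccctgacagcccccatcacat
Trim71, chr9:114564370-114564619, minus strand: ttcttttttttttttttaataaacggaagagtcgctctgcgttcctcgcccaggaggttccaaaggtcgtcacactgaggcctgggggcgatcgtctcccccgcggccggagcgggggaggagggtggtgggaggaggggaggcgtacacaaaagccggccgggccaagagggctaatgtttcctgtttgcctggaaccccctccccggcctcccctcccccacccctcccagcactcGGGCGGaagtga
Utf1, chr7:139943606-139943855, plus strand: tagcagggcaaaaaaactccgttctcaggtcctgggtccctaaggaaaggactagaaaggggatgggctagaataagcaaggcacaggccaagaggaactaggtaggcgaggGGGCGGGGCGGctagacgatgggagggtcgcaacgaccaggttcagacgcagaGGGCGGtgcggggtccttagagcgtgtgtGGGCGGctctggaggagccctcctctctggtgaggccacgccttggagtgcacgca

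The Pou5f1 window held 1 GC box that began 45 bases before the start, a nuclear receptor motif 33 bases before it and a CCAAT match on the other strand. The Sox2 window held 2 GC boxes, a CCAAT match, a nuclear receptor motif and the octamer core, which began 99 bases before the start. The Utf1 window held 4 GC boxes, of which 2 share a base, and the Trim71 window held 1. The window of Zfp281 held 4 GC boxes and a CCAAT match, and that of Lin28a held none of these letters. Among 32851 RefSeq windows of the same length, 32.7% held a GC box, 33.8% a CCAAT match, 12.4% a TBP motif, 4.12% the octamer core and 14% the nuclear receptor motif. The full octamer, ATGCAAAT, was in 1.6% of all windows and in none of these 6. GC content was 62% for Pou5f1, 72% for Sox2, 62.8% for Trim71 and 61.6% for Utf1, beside a median of 52.4% over all windows. A match is a description of letters in a window and says nothing of binding.

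Sox2 had no usable value: its count was 0 in all 4 libraries. The gene (ENSMUSG00000074637, 2057 bases on the plus strand of chromosome 3, 34650405 to 34652461 on mm10) lies wholly inside Sox2ot, a long non-coding gene on the same strand that spans 34104270 to 34682619. Sox2ot starts 546 kb before Sox2 and ends 30.2 kb after it, so that Sox2 has no base that belongs to it alone. Over the whole table, 6444 genes had no base of their own on their strand, and 100% of them had a count of 0 in all libraries. Among them were 478 protein-coding genes. Of the 21500 protein-coding genes with bases of their own, 14.5% were at 0. Of 744 protein-coding genes that were covered only by a gene of the other strand, 541 had counts. A read was thus counted over the whole gene span, by strand, and was not counted where 2 genes of 1 strand overlap, so the 0 of Sox2 says nothing about its transcription. No difference between the genotypes can be read for Sox2, and 8 of the 9 genes were left for the tests.

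**Figure D1:**
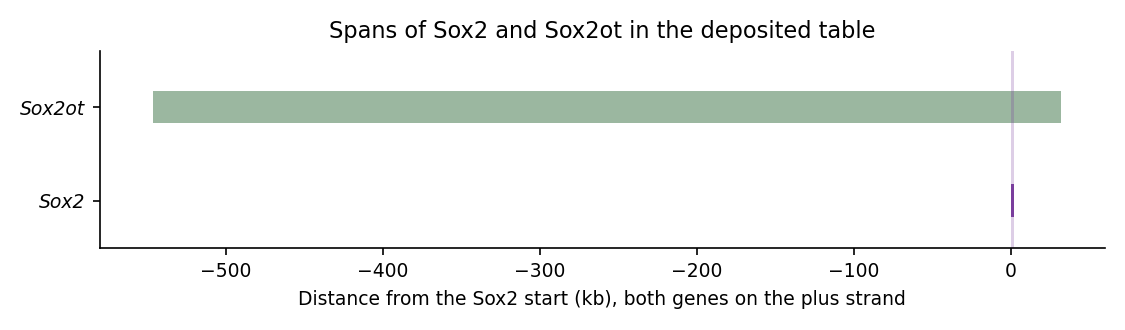
Spans of Sox2 and Sox2ot in the deposited table, plotted as distance in kb from the Sox2 start. The shaded stripe is the 2057-base span of Sox2, all of which lies within the 578 kb span of Sox2ot.

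Sox2ot itself held counts of 4824 and 6210 in WT and of 3187 and 4568 in KO. Scaled, WT held 354 and 325 CPM, KO 236 and 256 CPM, so both KO libraries stood below both WT libraries. Sox2ot fell by 0.46 ± 0.10 (SE) on the log2 scale (edgeR adjusted p = 0.0287). The call did not hold with WT replicate 1 left out (adjusted p = 0.224) or with WT replicate 2 left out (adjusted p = 0.133). This value comes from the 570 kb of Sox2ot outside other genes of its strand and does not include the bases of Sox2.

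The other 8 genes were transcribed in every library, over a range of levels. Since reads were counted over whole spans, introns included, levels of different genes are given as CPM per kb of gene span. The exon share of the span in GENCODE M21 ran from 15.5% for Dppa2 to 95.8% for Zfp281, with 92.7% for Utf1. Its part in the order of these levels was not tested. Utf1, an unusually short gene of 1.32 kb, had the highest level per kb, 42.9 ± 1.44 for WT beside 42.1 ± 3.79 for KO (SD over 2 libraries each; n = 2, WT first, in the values that follow). Pou5f1 followed with 28.1 ± 1.62 and 30.4 ± 2.83 CPM per kb. Sall4 stood at 21.3 ± 2.09 and 18.2 ± 0.0893, Trim71 at 16.9 ± 0.646 and 17.2 ± 1.63, and Zfp281 at 16.7 ± 1.23 and 17.3 ± 0.904 CPM per kb. Every Sall4 value, from 18.1 to 22.7, was above every Zfp281 value, from 15.9 to 17.9. Trim71 ranged from 16.0 to 18.3 and overlapped with Zfp281 and, through KO replicate 1, with Sall4, so its place in the order is not resolved. Lin28a came below them, at 13.6 ± 1.08 and 13.1 ± 1.87 CPM per kb. Dppa4, at 4.04 ± 0.248 and 4.62 ± 0.138, and Dppa2, at 3.89 ± 0.322 and 4.52 ± 0.691 CPM per kb, were the lowest and overlapped with each other. By mean level per kb among the 14158 protein-coding genes tested, Utf1 ranked 109, Pou5f1 179 and Dppa2 1922. Spans of some other genes include bases shared with a gene of their strand, where reads were not counted, so these ranks may be too favourable. By CPM per gene, with no correction for length, Trim71 ranked 43, on a span of 57.2 kb, and Dppa4 4919.

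None of the 8 genes differed between the genotypes with TMM scaling. At an adjusted p under 0.05 edgeR's quasi-likelihood test called 0 of 8, beside 8.07% of the 16789 genes tested (4.02% lower and 4.05% higher), and 0 of 8 had an unadjusted p under 0.05, beside 22.9%. DESeq2 also called 0 of 8 (7.34% of all genes) and so did limma voom (8.06%). The log2 fold changes ran from -0.23 for Sall4 to 0.21 for Dppa2, with a median of 0.032 (all tested genes 0.0065) and 3 of 8 below 0 (all tested genes 48.9%). Their 95% intervals all lay between -0.48 and 0.49, so a larger relative change of any single gene is outside its interval, while a smaller one could not be resolved with 2 libraries per genotype. In a whole culture, fewer cells that transcribe a gene and less RNA per cell cannot be told apart.

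**Figure D2:**
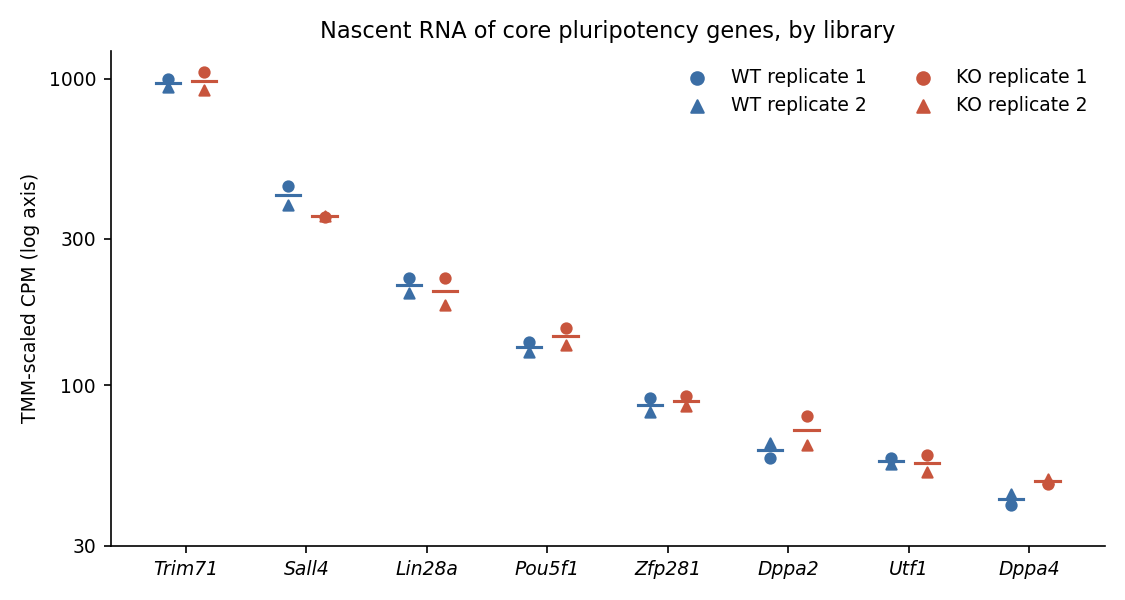
TMM-scaled CPM of the 8 genes with counts, on a log axis, with 1 point per library and a line at the mean of each genotype (n = 2). The genotypes overlap for 6 genes; both KO libraries lie below both WT libraries for Sall4 and above them for Dppa4.

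The WT libraries held 139 and 128 CPM of Pou5f1, the KO libraries 154 and 135 CPM. The higher WT library lay above the lower KO library, so the groups overlapped. The log2 fold change was 0.12 ± 0.10 (SE), with a 95% interval from -0.11 to 0.34 (edgeR adjusted p = 0.552). Pou5f1 (ENSMUSG00000024406) spans 35506018 to 35510772 on the plus strand of chromosome 17 on mm10, and 47.3% of that span is exon in GENCODE M21.

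Sall4 was the gene with the lowest fold change. WT held 446 and 388 CPM, KO 355 and 357 CPM, so both KO libraries were below both WT libraries and almost equal to each other. The log2 fold change was -0.23 ± 0.11 (SE), with an interval from -0.48 to 0.021 (edgeR adjusted p = 0.260). Both KO libraries lay below both WT libraries for 26% of all tested genes. The shallower KO library differed from the shallower WT library by -0.33 on the log2 scale, the deeper KO library from the deeper WT library by -0.12. With a term for counted reads, which joins the shallower and the deeper libraries into pairs, Sall4 passed (-0.22 ± 0.071, adjusted p = 0.00913). That term is defined from the same library totals and leaves 1 residual degree of freedom, and with it 25.7% of all tested genes passed. The total degrees of freedom of that fit were 16789 for each of the 8 genes. Its SE and p therefore rest on variance pooled over all tested genes, not on the spread of Sall4 itself. Zfp281, the other zinc finger regulator, had 90.7 and 81.8 CPM (WT) against 92.2 and 85.6 CPM (KO). Its groups interleaved, and its log2 fold change was 0.044 ± 0.095 (SE, interval -0.17 to 0.26).

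Trim71 had the most counts of the set, between 13575 and 18028 per library. Scaled, WT held 995 and 943 CPM beside 1048 and 916 CPM for KO, so the KO libraries enclosed the WT libraries. The log2 fold change was 0.020 ± 0.13 (SE), with an interval from -0.27 to 0.31. Lin28a gave 223 and 200 CPM for WT, 224 and 183 CPM for KO, again with overlap. The log2 fold change of Lin28a was -0.057 ± 0.12 (SE), with an interval from -0.33 to 0.22. Utf1 gave 58.1 and 55.4 CPM for WT, 59.3 and 52.2 CPM for KO, where the KO libraries again enclosed the WT libraries (log2 fold change -0.028 ± 0.10, interval -0.26 to 0.20).

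Dppa2 and Dppa4 had the 2 highest fold changes. Dppa4 had 40.6 and 44.3 CPM (WT) against 47.5 and 49.6 CPM (KO), so both KO libraries were above both WT libraries, as they were for 26.7% of all tested genes. The log2 fold change of Dppa4 was 0.19 ± 0.099 (SE), with an interval from -0.031 to 0.42 (edgeR adjusted p = 0.289). Dppa2 had 57.9 and 65.1 CPM (WT) against 79.1 and 63.7 CPM (KO). Only KO replicate 1 stood apart, and the groups overlapped. The log2 fold change of Dppa2 was 0.21 ± 0.12 (SE), with an interval from -0.065 to 0.49 (edgeR adjusted p = 0.350). Dppa2 passed without KO replicate 2 (log2 fold change 0.36, adjusted p = 0.0137), a fit in which 18.2% of all tested genes passed, while with KO replicate 1 left out its log2 fold change was 0.042 (adjusted p = 0.894). With the term for counted reads its adjusted p was 0.0485.

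In all, 2 of 8 genes had groups that did not overlap, Sall4 and Dppa4, beside 52.7% of all tested genes. The difference had the same sign within both pairs of libraries of like depth for 4 of 8 genes, beside 72.2% of all tested genes.

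**Figure D3:**
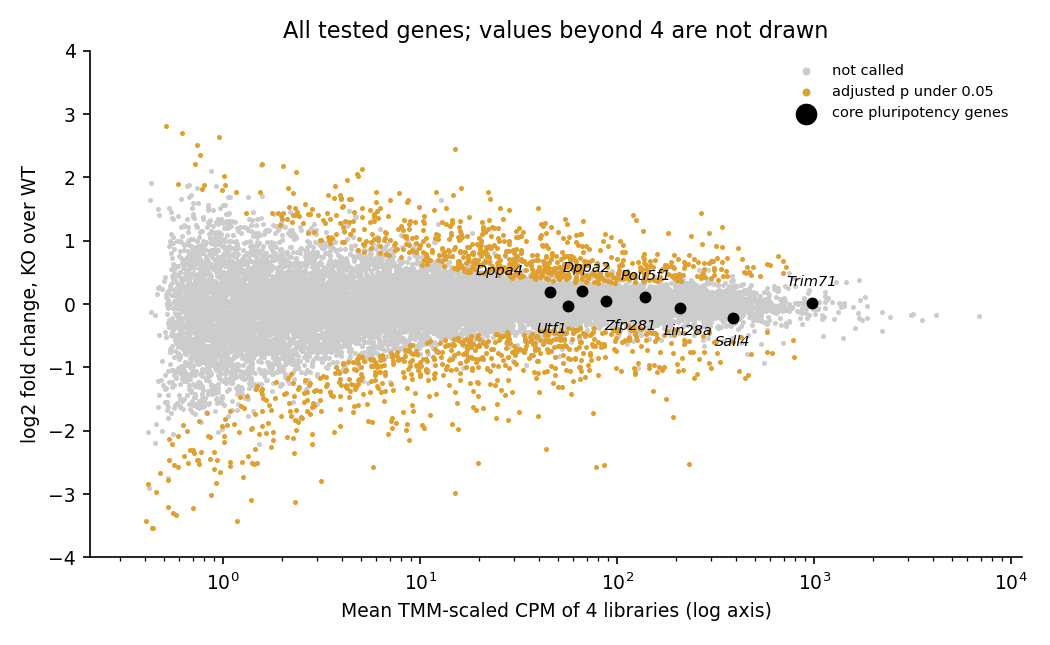
Log2 fold change of KO over WT against the mean level for the tested genes, with genes that passed in orange and the 8 core pluripotency genes in black; 3 genes beyond 4 on the vertical axis are not drawn. The 8 black points lie between -0.23 and 0.21, inside the grey band of genes that did not pass.

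Relative to the spike-in, which measures output per amount of added S. pombe RNA, levels were lower in KO for all 8 genes, and none passed. Values here are counts scaled to a spike-in library size of 1000000. Pou5f1 then had 459 and 707 (WT) against 427 and 637 (KO), and Sall4 1472 and 2141 against 984 and 1684. Trim71 had 3284 and 5202 (WT) against 2905 and 4316 (KO). For all 8 genes the library numbered 2 was above the library numbered 1 of its genotype, and the genotypes overlapped for all 8, beside 17.3% of all tested genes whose genotypes did not overlap on this scale. The log2 fold changes ran from -0.44 for Sall4 to -0.050 for Dppa4, with a median of -0.21, close to the median of -0.23 over all tested genes, of which 79% were below 0. The direction rested on single libraries: the median of the 8 genes turned to 0.14 when WT replicate 2 was left out and to 0.062 when KO replicate 1 was. The spike-in test called 0 of 8, beside 0.101% of all tested genes, and 0 of 8 had an unadjusted p under 0.05. The standard errors were 0.69 to 0.81, and the 95% intervals reached from -2.00 to 1.36, so this scaling could not resolve changes of the size seen. Within both pairs of libraries of like depth KO was below WT for 7 of 8 genes, all but Dppa2, beside 67.4% of all tested genes. With the term for counted reads, 5 of 8 passed as lower (Sall4, Trim71, Lin28a, Utf1 and Zfp281), beside 37.6% of all tested genes that passed as lower and 42.7% that passed in either direction. In that fit Sall4 stood at -0.46 ± 0.082 (SE, adjusted p = 0.000127) and Pou5f1 at -0.13 ± 0.074 (adjusted p = 0.170). The authors' deposited table, which scales by the same spike-in, gives log2 fold changes of -0.32 for Sall4, -0.17 for Trim71, -0.097 for Pou5f1 and -0.035 for Dppa4. The authors' deposited table lists an adjusted p of 0.999 for each of the 8 genes and no value for Sox2. It lists an adjusted p under 0.05 for 0.0271% of the 29514 genes that have a value.

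**Figure D4:**
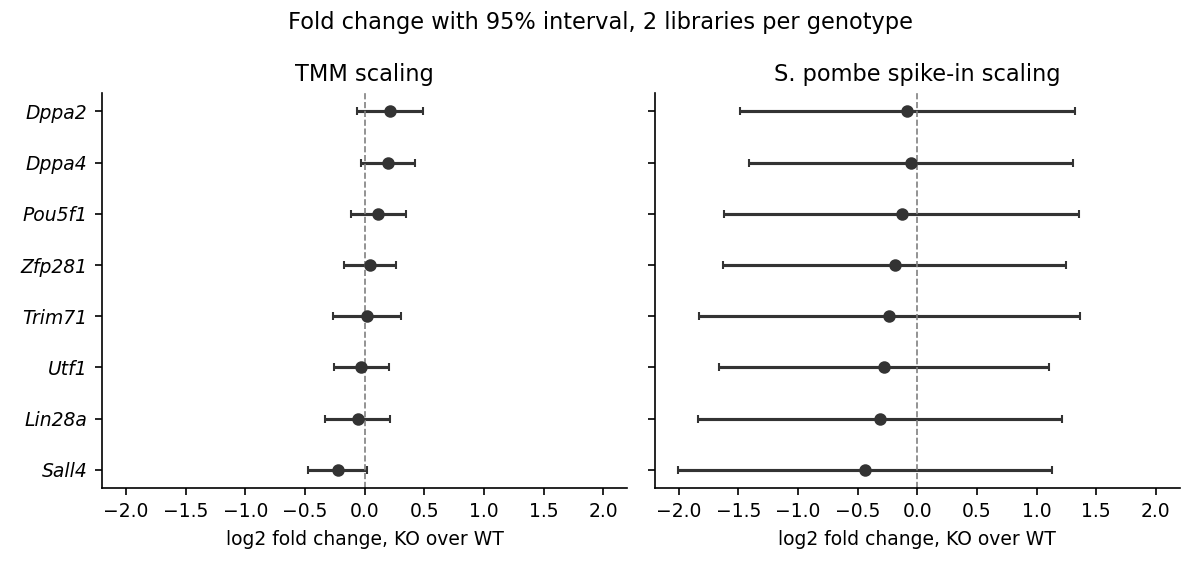
Log2 fold change of KO over WT with its 95% interval for the 8 genes, with TMM scaling (left) and spike-in scaling (right), 2 libraries per genotype. The intervals reach from -0.48 to 0.49 on the left and from -2.00 to 1.36 on the right, and all cross 0.

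Levels relative to one another need no scaling between libraries. The level of each gene was set against the mean log2 level of the 8 genes in the same library. Trim71 then varied over a range of 0.046 on the log2 scale across the 4 libraries, Utf1 over 0.083 and Zfp281 over 0.090, while Sall4 varied over 0.41, Dppa2 over 0.37 and Dppa4 over 0.36. Sall4 held 0.448 and 0.412 counts per Trim71 count in WT and 0.339 and 0.390 in KO, so the ratio was lower in both KO libraries (exact two-sided permutation test, p = 0.333, the smallest that 2 against 2 libraries allow). Dppa2 held 1.43 and 1.47 counts per Dppa4 count in WT and 1.66 and 1.28 in KO, where the KO libraries enclosed the WT libraries. The ratio of Lin28a to Trim71 was 0.225 and 0.212 in WT and 0.214 and 0.200 in KO, and overlapped.

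**Figure D5:**
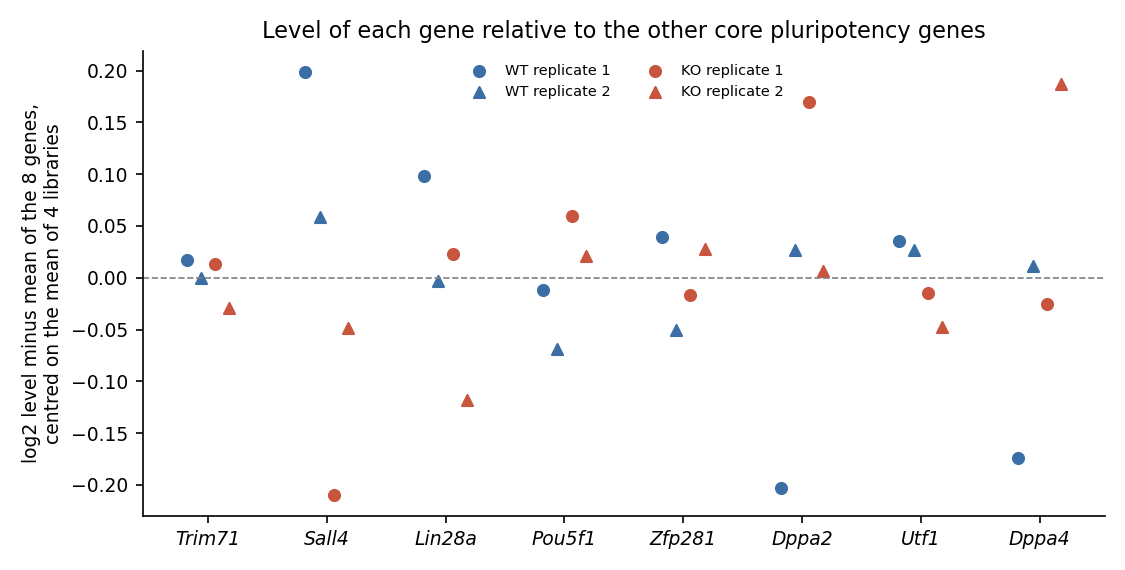
Log2 level of each gene minus the mean log2 level of the 8 genes in the same library, centred on the mean of the 4 libraries; each point is 1 library. Sall4 and both Dppa genes spread the most, and Trim71 the least.

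The neighbourhoods of the genes could add or take away counts. Pou5f1, Sall4, Trim71 and Lin28a each overlap 1 gene on the opposite strand (Gm19553, Gm14261, C130032M10Rik and Gm13061), whose counts came to 0.181%, 0.620%, 0.0258% and 0.236% of the member's counts. Dppa4 and Dppa2 have processed pseudogenes of at least 95% identity over at least 100 bases (Gm14058 and Gm5501 for Dppa4, Gm9788 and Gm8023 for Dppa2). These matches cover 56.9% of the Dppa4 transcript and 37.0% of that of Dppa2, but 8.01% and 5.73% of their spans, and the 4 pseudogenes held from 1 to 22 counts over all libraries. The treatment of reads that align to several places was not given in the sources used here. The values of both genes are uncertain to that extent. For Pou5f1, Sall4, Trim71 and Lin28a the only such match was the overlapping gene of the opposite strand named above. No such match was found for Sox2, Utf1 or Zfp281.

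Dppa4 (chromosome 16, 48283733 to 48294237) and Dppa2 (48303908 to 48319723) lie 9.67 kb apart on the plus strand. Morc1, the next tested protein-coding gene, a silencer of transposons in the male germ line, begins 112 kb beyond Dppa2. The WT libraries held 270 and 288 CPM of Morc1, the KO libraries 173 and 201 CPM, and it fell by 0.58 ± 0.11 (SE) on the log2 scale (edgeR adjusted p = 0.0146, or adjusted p = 0.0939 with WT replicate 2 left out). There were 4.66 and 4.42 Morc1 counts per Dppa2 count in WT and 2.18 and 3.16 in KO, and the exact permutation p of that ratio was 0.333. Of the 16 nearest tested protein-coding genes beside the 9 genes, 1 passed, Morc1, a share no higher than the 8.07% of all tested genes.

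Genes that act with the set were described from fixed lists, each as a count and a median in the TMM fit, to be read beside the 4.02% of all tested genes that fell and the 4.05% that rose. Of 20 other regulators of the ES cell network, 4 fell and 0 rose, with a list median of -0.18; the number that passed ran from 3 to 9 as each library was left out in turn and was 9 without KO replicate 2. These were Tbx3 (-1.71 ± 0.23 on the log2 scale, SE), Klf4 (-0.87 ± 0.13), Tfcp2l1 (-0.73 ± 0.18) and Nanog (-0.53 ± 0.13), all transcription factors that hold the naive state. With WT replicate 2 left out, Tfcp2l1 did not pass (adjusted p = 0.0555), and its value was -0.46 without KO replicate 1. Nanog was at -0.35 without KO replicate 1. Of 11 genes long used as targets of Oct4 and Sox2, 4 fell and 0 rose, with a list median of -0.46, and Nanog is in both lists. The others were Fgf4, the growth factor that drives exit from the naive state (-0.71 ± 0.099 on the log2 scale), the secreted phosphoprotein gene Spp1 (-0.67 ± 0.11 on the log2 scale) and the F-box gene Fbxo15 (-0.44 ± 0.11). Fbxo15 missed the threshold when WT replicate 1, WT replicate 2 or KO replicate 1 was left out (adjusted p from 0.0673 to 0.460).

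The ratio of Nanog to Pou5f1 counts needs no scaling between libraries. There were 0.847 and 0.911 Nanog counts per Pou5f1 count in WT and 0.452 and 0.681 in KO, so the ratio was lower in both KO libraries (exact permutation p = 0.333). Markers of another cell type moved with these values: of 12 primitive endoderm markers 10 rose and 0 fell, and their summed level went from 739 and 834 CPM (WT) to 1421 and 1853 CPM (KO). Of 10 trophoblast markers tested 5 rose and 0 fell (2 passed with DESeq2, 3 without WT replicate 1, 2 without WT replicate 2 and 8 without KO replicate 2), with summed levels of 133 and 148 CPM (WT) against 142 and 196 CPM (KO). Of 12 markers of feeder fibroblasts 7 were high enough to be tested, and 1 of them, Thbs1, rose. Of the 7, 5 were above 0 and 2 below, with a median of 0.21 and a range from -1.19 to 1.27 on the log2 scale. The summed level of the 7 was 72.0 and 51.3 CPM (WT) against 102 and 95.8 CPM (KO). Of 10 markers of the primed or formative state, which ES cells pass through as they leave the naive state, 1 rose and 5 fell. Their median was -0.38, with a range from -1.39 to 1.40 on the log2 scale, 4 above 0 and 6 below. Their summed levels were 682 and 643 CPM (WT) against 517 and 489 CPM (KO). The number of them that passed changed with the library left out. No marker of these 4 lists was at 0 in all libraries. The part of these marker changes in the values of the 8 genes was not tested. The summed level of the 8 genes was 2050 and 1905 CPM (WT) against 2059 and 1843 CPM (KO). ES cell markers besides Sox2 were present in every library, with Pou5f1 and Nanog as given. Esrrb had 543 and 612 CPM (WT) against 242 and 427 CPM (KO), and Zfp42 487 and 548 CPM against 272 and 401 CPM. For each, both KO libraries lay below both WT libraries. The log2 fold changes were -0.79 ± 0.22 (SE, edgeR adjusted p = 0.0682) for Esrrb and -0.62 ± 0.17 (adjusted p = 0.0639) for Zfp42, so neither passed.

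In the Lin28 and let-7 pathway the paralogs differed in their values. Lin28b, which also blocks let-7 maturation, rose from 109 and 108 CPM (WT) to 157 and 161 CPM (KO; log2 fold change 0.55 ± 0.086, SE, interval 0.35 to 0.74, edgeR adjusted p = 0.00763). With WT replicate 2 left out it did not pass (adjusted p = 0.0600). Lin28a, as given, had an interval from -0.33 to 0.22. The library values were 0.488 and 0.541 Lin28b counts per Lin28a count in WT and 0.699 and 0.877 in KO, with no overlap (exact permutation p = 0.333). Of 18 genes of the pathway 1 rose and 2 fell, with a median of 0.0060. The number that passed changed with the library left out, and 8.07% of all tested genes passed with all 4 libraries. The 2 pathway genes that fell were Igf2bp2 (-0.75 ± 0.14) and Igf2bp3 (-0.56 ± 0.093), which encode RNA-binding proteins and are targets of let-7. With WT replicate 2 left out, Igf2bp3 did not pass (adjusted p = 0.0714).

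A list of paralogs of the 9 genes held 11 tested genes, among them Dppa3 and Dppa5a, which share only a name with Dppa2 and Dppa4. Of the 11, 1 passed, Lin28b, beside 8.07% of all tested genes, and the list median was -0.027. The number that passed was 0 without WT replicate 2, 2 without WT replicate 1 or KO replicate 1 and 3 without KO replicate 2. Sall1 had 186 ± 14.6 CPM (WT) against 183 ± 11.4 (KO), and Zfp148, the closest relative of Zfp281, 439 ± 24.3 against 443 ± 88.2 (SD, n = 2). Of the 11, 4 were above 0 and 7 below, and 3 had an unadjusted p under 0.05, beside 22.9% of all tested genes. These were Lin28b, Dppa3 and Pou3f1. Dppa3 had 0.953 and 0.941 CPM (WT) against 0.445 and 0.337 CPM (KO), near the floor (-1.28 ± 0.45, SE, edgeR adjusted p = 0.126). Pou3f1 stood at 0.49 ± 0.20 (SE, edgeR adjusted p = 0.180). Of 12 subunits of NuRD, the corepressor that Sall4 and Zfp281 recruit, 1 rose and 1 fell, with a median of 0.024. Mta3 fell by 0.93 ± 0.13 (SE) on the log2 scale, and Mbd2, a reader of methylated DNA, rose by 0.62 ± 0.094. The other 10 did not pass. In the spike-in fit 0 genes of any of these lists passed.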

How the data were processed

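Nascent RNA counts of 4 TT-seq libraries were used. Per the submitters' processing notes, the authors used STAR 2.5.3 and HTSeq 0.6.1p1 with mm10, beside bcl2fastq 2.20.0.422, DESeq2 1.16.1 and cutadapt 1.10; strand setting and annotation release were not given in the sources used here. The authors deposited raw counts (54146 mouse genes, 7259 of S. pombe). A second table of the authors holds the same counts (100% equal), signal values (a count over a library's size factor), log2 fold changes, shrunken by a beta prior per the table's name, and p-values. Depth was 13092151 to 19405100 mouse counts; the 2 libraries of a genotype differed by a chi-square of 6.05 (WT) and 10.6 (KO) per degree of freedom, so no library was a duplicate.

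Genes kept by filterByExpr (minimum count 10), 16789 in all, were tested with edgeR 4.0.16 quasi-likelihood fits (R 4.3.3) on genotype alone, with Benjamini-Hochberg adjustment over all tested genes. Library sizes came from TMM of mouse genes or, for spike-in scaling, from S. pombe totals multiplied by their own TMM factors. SE is the log2 fold change over the square root of F. The labels give no replicate numbers; libraries were numbered in accession order. Alternatives were DESeq2 1.42.0, limma 3.58.1 voom, other scalings and filters, each library left out, and a term for counted reads. The edgeR fit on genotype alone was also run on simulated mouse counts. That run used no S. pombe counts and no term for counted reads, so it is no test of either. Near-identical copies were found by blastn against GENCODE M21 transcripts. Named were the 9 members, genes overlapping or flanking them, and up to 4 called genes of each list (marker lists as counts, with Thbs1). Also named were the ES cell markers Esrrb and Zfp42 and, from the paralog list, Sall1, Zfp148, Dppa3 and Pou3f1, chosen after their values were seen. Members, lists and the term were chosen with earlier results of these data known.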

Additional observations from a re-analysis of the deposited data

How the results depend on the processing

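With TMM scaling the number of the 8 genes that passed was 0 with all libraries under DESeq2, limma voom, 2 other scalings and 2 other filters; it was 2 with the term for counted reads and ran from 0 to 1 when a library was left out. In the spike-in fit it was 0 with 2 other spike-in sizes and whenever a library was left out, and 5 with that term. The median log2 fold change of the 8 genes moved by less than the spread between single libraries under every TMM alternative. Signs turned for several genes. With spike-in scaling the 5 genes above 0 under TMM scaling all fell below 0, among them Dppa2 and Dppa4 with the highest TMM values. The log2 fold change was then -0.13 for Pou5f1, -0.23 for Trim71, -0.050 for Dppa4, -0.083 for Dppa2 and -0.19 for Zfp281. The median of all tested genes was -0.23 in that fit. Trim71 stood at -0.017 with upper-quartile factors. When a library was left out, values ran from -0.085 to 0.11 for Trim71, from -0.21 to 0.083 for Lin28a, from -0.13 to 0.063 for Utf1 and from -0.030 to 0.11 for Zfp281. Without a low-count filter 8 of 20 other network regulators, 6 of 18 let-7 pathway genes and 2 of 11 genes of the paralog list passed, beside 2460 of 29514 genes. With the term for counted reads 10, 9 and 4 passed, with 8 of 11 targets of Oct4 and Sox2, beside 25.7% of all tested genes. The cause was not tested. No paired analysis was possible because the labels give no replicate numbers; the term for counted reads joins libraries by their totals. A fit with a single library in one genotype assumes that it varies like the other pair.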
